A study of Mus musculus with 6 samples.

Results

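The metallothioneins and zinc transporters described here are 10 mouse genes, taken by symbol from the 40213 genes of the deposited count files. They are the metallothioneins Mt1 and Mt2, the zinc-sensing transcription factor Mtf1, the zinc exporters Slc30a1, Slc30a5 and Slc30a7, and the zinc importers Slc39a1, Slc39a7, Slc39a10 and Slc39a14. All 10 had counts in every library and all 10 passed the filter on low counts. They were measured by RNA sequencing in 6 libraries of macrophages grown from C57BL/6 mouse bone marrow in 10% serum for 4 days, with 25 ng/ml of M-CSF, the macrophage growth factor. In 3 MNP libraries the plated cells had received polystyrene micro- and nanoplastics (MNP, 50 µg, with no volume given) for 24 h, and in 3 control libraries they had received none. The labels do not give the age or sex of the mice or any pooling of marrow, nor do they tie replicates to different cultures or mice. The p-values therefore rest on the spread among these libraries alone, which may be technical.

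Metallothioneins are small cysteine-rich proteins that hold zinc and copper in the cytosol and release zinc when their thiols are oxidized. Free zinc activates MTF1, which binds metal response elements (MREs) in the promoters of Mt1, Mt2 and Slc30a1. Proteins of the SLC30 (ZnT) family move zinc out of the cytosol, across the plasma membrane or into organelles, and those of the SLC39 (ZIP) family move it in. Macrophages use both to starve engulfed microbes of zinc or to poison them with it.

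Across the 10 genes, 4 rose in MNP libraries and none fell, beside 9.11% of all tested genes higher and 8.35% lower. Slc39a14 rose 1.68-fold and Mt1 1.52-fold, and Slc39a10 and Slc30a1 rose by the smaller amounts of 1.20-fold each. Mt2, Mtf1, Slc30a5, Slc30a7, Slc39a1 and Slc39a7 did not pass the test. Outside the 10, the importer Slc39a4 rose 6.47-fold from a low level, the largest change among the 21 tested zinc transporters, metallothioneins and Mtf1.

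The stretches upstream of the metallothionein genes and of Slc30a1 are shown because these are the textbook MTF1 targets, and because Mt1 and Slc30a1 rose while Mt2 did not pass. RefSeq promoter entries were found for 9 of the 10 genes. Each sequence gives the 250 bases before the RefSeq start site on GRCm38.p6, read 5′ to 3′ on the gene's strand, with MRE cores in capitals. The core was searched as TGCACNC or TGCGCNC on both strands. All 3 genes lie on the plus strand. The Mt1 window lies at chr8:94178839-94179088, the Mt2 window at chr8:94172368-94172617 and the Slc30a1 window at chr1:191906531-191906780.
Mt1: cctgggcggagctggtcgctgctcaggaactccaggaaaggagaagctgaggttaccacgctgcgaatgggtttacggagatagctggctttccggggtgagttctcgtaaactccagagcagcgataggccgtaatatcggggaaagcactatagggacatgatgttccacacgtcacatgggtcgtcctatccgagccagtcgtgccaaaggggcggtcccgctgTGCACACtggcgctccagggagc
Mt2: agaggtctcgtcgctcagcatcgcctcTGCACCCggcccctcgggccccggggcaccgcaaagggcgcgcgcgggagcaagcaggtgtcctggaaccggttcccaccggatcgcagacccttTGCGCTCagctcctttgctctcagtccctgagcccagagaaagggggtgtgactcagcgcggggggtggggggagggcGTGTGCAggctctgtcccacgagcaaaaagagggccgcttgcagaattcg
Slc30a1: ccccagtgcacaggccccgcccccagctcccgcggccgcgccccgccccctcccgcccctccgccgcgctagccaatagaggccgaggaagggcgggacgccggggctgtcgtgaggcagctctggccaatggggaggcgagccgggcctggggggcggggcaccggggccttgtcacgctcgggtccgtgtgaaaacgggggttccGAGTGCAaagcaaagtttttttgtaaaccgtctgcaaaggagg
The Mt1 window held 1 core, 23 bases before the start counted from the core's first base. The Mt2 window held 3, at 223, 128 and 50 bases, and the Slc30a1 window 1, at 43 bases. Of 32851 mouse promoter windows of the same length, 21.4% held at least 1 core and 1.26% at least 3. Among the 9 genes with an entry, 4 had a core, the fourth being Slc30a5. The core of the antioxidant response element, TGACNNNGC, was present in 10.2% of all windows, and in those of Mt2, Slc30a1 and Slc39a1 among the 9, with no overlap with an MRE core. GENCODE places 2 of its 3 Mt1 transcript starts 123 and 153 bases downstream of the Mt1 window and its 2 Mt2 starts 47 and 243 bases downstream of the Mt2 window, and the bases in between were not searched. The windows therefore stop short of most annotated starts of both genes, and metal or antioxidant response elements nearer to those starts may lie outside them. The counts of 1 and 3 MRE cores are not the content of the whole promoters. Nor does the lack of an antioxidant response element core in the Mt1 window speak for the bases not searched. A match is a description of letters, not of a site in use.

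Values are CPM, a gene's count as a share of its library's total, scaled by TMM factors, which correct the totals for composition, and a gene was called changed at a Benjamini-Hochberg adjusted p under 0.05 in edgeR's quasi-likelihood test over 12893 genes. The libraries held 20262859 to 23042146 counts each, and 3 counts were worth 0.127 to 0.145 CPM. The first principal component (47.3% of the variance) separated controls (-34.4 to -22.3) from MNP libraries (26.75 to 28.8). The second set MNP 1 (32.6) apart from MNP 2 and 3 (-11.3 and -18.9). On it control 1 (10.85) also lay apart from controls 2 and 3 (-5.30 and -7.93), on the same side as MNP 1. Control 1 had counts for 24062 genes, against 20222 to 20935 in the other controls and 18240 to 18672 in MNP libraries. The defining macrophage markers were abundant, with Csf1r, the receptor for macrophage colony-stimulating factor, at 1319 to 1465 CPM in controls and 1312 to 1382 CPM in MNP libraries. The sum of 6 macrophage markers was 4060 to 4451 CPM in controls and 3911 to 4098 CPM in MNP libraries, while 3 of them fell, Adgre1, Mertk and Fcgr1. The sum of 8 neutrophil markers was 181 to 269 CPM in controls and 132 to 152 CPM in MNP libraries, with 4 of 7 tested lower (S100a9, Mpo, Ltf and Ngp) and the defining neutrophil marker Ly6g at 0 to 2 counts. The 5 dendritic cell markers summed to 3.48 to 6.09 CPM in controls and 1.72 to 3.53 CPM in MNP libraries, and 1 of 3 tested fell (Siglech). The 5 lymphocyte, 4 fibroblast and 3 mast cell or basophil markers each summed to under 2 CPM in every library, with Cd3e and Ncr1 at 0. The part of other cell types in the results was not tested, and in these bulk samples a change in the share of a cell type and a change in RNA per cell cannot be told apart.

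Of all 12893 genes tested, 17.5% were called in either direction. No member was lower at an unadjusted p under 0.05 either (0 of 10 in edgeR), and DESeq2 and limma-voom also called 0 lower. The median log2 fold change of the 10 was 0.18, against -0.01 over all tested genes. In 4 of the 10 all MNP libraries lay above all controls, a pattern that 17.2% of tested genes had, and in 1 of the 10 all lay below, as in 17.4% of tested genes. None of the 10 was called with a change of at least 2-fold, which 3.58% of tested genes were. The members were chosen with results of these data known, so these counts describe them and test nothing.

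**Figure D1:**
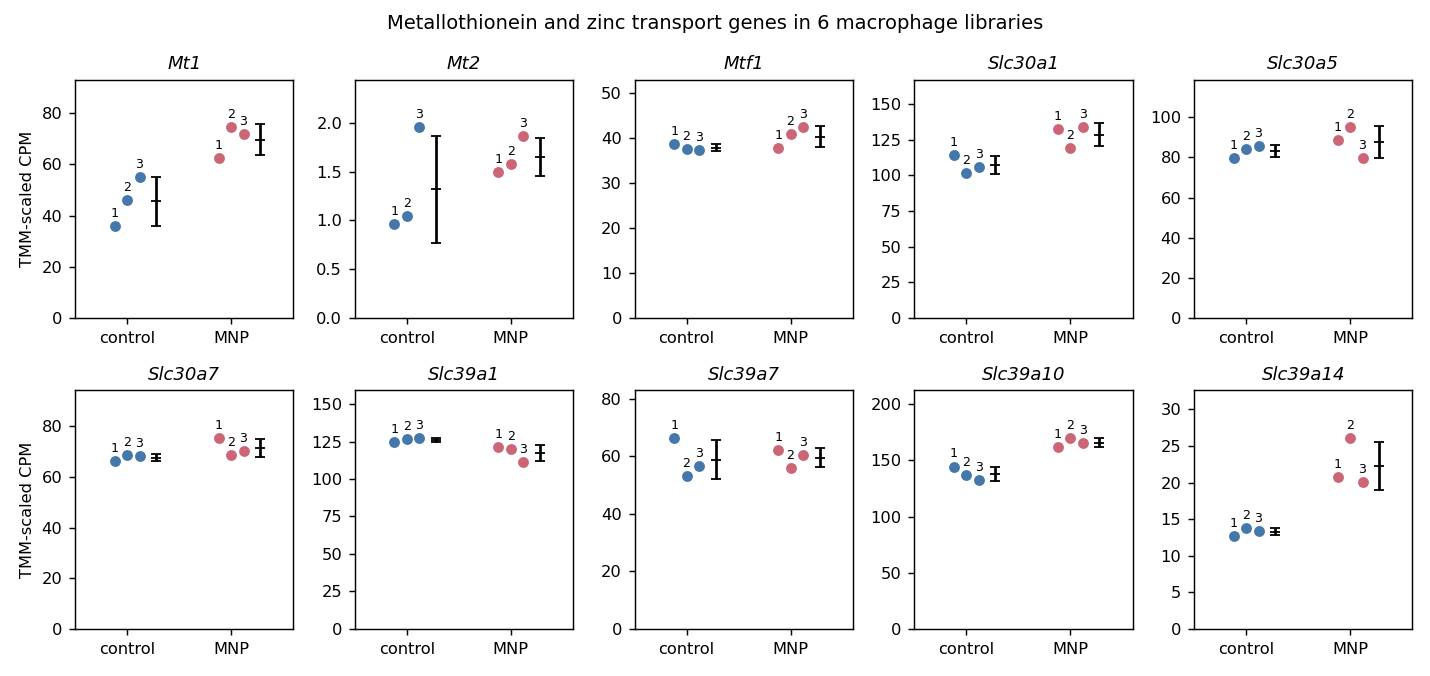
TMM-scaled CPM (vertical axes, each from 0) of the 10 genes in 3 control and 3 MNP libraries. Points are libraries with their replicate numbers, and the bar beside each group is the mean with the SD. The MNP points of Mt1, Slc30a1, Slc39a10 and Slc39a14 lie above every control point, and those of Slc39a1 below.

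Mt1, the metallothionein that made up nearly all metallothionein counts here, was at 35.9, 46.0 and 55.0 CPM in controls 1 to 3 and at 62.6, 74.3 and 71.9 CPM in MNP 1 to 3. The groups did not overlap, although the controls differed among themselves, with control 1 lowest. Mean levels were 45.6 ± 9.51 and 69.6 ± 6.19 CPM (SD, n = 3 each), a log2 fold change of 0.61 ± 0.12 SE (edgeR adjusted p = 0.00367). Without control 1, the library with the most genes detected, the log2 fold change of Mt1 was 0.47 (edgeR adjusted p = 0.00226), and over all 14 alternatives it lay between 0.47 and 0.77, past the threshold each time. Without MNP 1, the library furthest out on the second component, it was 0.68 (edgeR adjusted p = 0.00373).

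Mt2, the other metallothionein found in most tissues, was weakly counted in these libraries, though it passed the filter on low counts. It had 20, 24 and 46 counts in controls and 31, 35 and 39 in MNP libraries, or 0.959, 1.04 and 1.95 CPM and 1.498, 1.58 and 1.86 CPM. Control 3 was above all MNP libraries and the other controls below them, so the groups overlapped. The log2 fold change of 0.32 ± 0.38 SE did not pass (edgeR adjusted p = 0.627), and its 95% interval ran from -0.51 to 1.14. That interval includes the change of Mt1, and the difference between the changes of the 2 genes was not tested. The leading GENCODE transcripts of Mt1 and Mt2, of 549 and 511 bases, were 74.9% identical over 483 aligned bases, and the longest run of letters they share was 20 bases. Exons of Mt2 overlap those of the gene Gm45774 on the opposite strand, a symbol that the deposited counts do not hold. With no strand setting given in the sources used here, their reads cannot be told apart.

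Mtf1, whose protein turns free zinc into transcription of the metallothioneins, was at 38.7, 37.5 and 37.4 CPM in controls and 37.7, 40.9 and 42.3 CPM in MNP libraries. MNP 1 lay within the controls and MNP 2 and 3 above them. Its log2 fold change of 0.09 (95% interval -0.07 to 0.26) did not pass (edgeR adjusted p = 0.456). Exons of Mtf1 overlap those of 1110065P20Rik on the opposite strand, which had 28 to 49 counts against 781 to 907 for Mtf1.

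Among the exporters, Slc30a1 (ZnT1), which carries zinc across the plasma membrane out of the cell, rose from 114, 101 and 106 CPM to 133, 119 and 133 CPM. Every MNP library was above every control, with MNP 2 nearest to control 1. The log2 fold change was 0.26 ± 0.07 SE (107 ± 6.52 to 128 ± 8.02 CPM, edgeR adjusted p = 0.0145). The call was lost in 4 of 14 alternatives, with library totals alone (0.17, edgeR adjusted p = 0.0760) and without control 2 (0.22, edgeR adjusted p = 0.0677), MNP 1 (0.24, edgeR adjusted p = 0.0524) or MNP 3 (0.24, edgeR adjusted p = 0.0697). An antisense gene that overlaps it, 1700034H15Rik, had 3 to 12 counts against 2333 to 2793 for Slc30a1.

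The exporters of the secretory pathway did not pass. Slc30a5 (ZnT5), which works with ZnT6 to load zinc into enzymes of the early secretory pathway, was at 79.9, 84.1 and 85.5 CPM in controls and 88.6, 94.9 and 79.5 CPM in MNP libraries, with MNP 3 below every control. Its log2 fold change was 0.08 (95% interval -0.08 to 0.23, edgeR adjusted p = 0.519). Slc30a7 (ZnT7), a Golgi transporter, was at 66.2, 68.7 and 68.2 CPM and at 75.3, 68.5 and 70.4 CPM, with MNP 2 among the controls and the other MNP libraries above them. The log2 fold change of Slc30a7 was also 0.08 (95% interval -0.06 to 0.22, edgeR adjusted p = 0.461). Both values turned slightly negative (-0.01) with library totals alone.

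Of the importers, Slc39a14 (ZIP14), which carries zinc and also iron and manganese into cells, rose most among the 10. It was at 12.7, 13.7 and 13.4 CPM in controls and at 20.7, 26.1 and 20.1 CPM in MNP libraries. The controls lay close together, and MNP 2 stood above the other MNP libraries. The log2 fold change was 0.75 ± 0.11 SE (13.3 ± 0.500 to 22.3 ± 3.28 CPM, edgeR adjusted p = 0.000476) and ran from 0.62 without MNP 2 to 0.82 without MNP 3, past the threshold in all 14 alternatives. Without MNP 1 it was 0.80 and without control 1 it was 0.73.

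Slc39a10 (ZIP10), a plasma membrane importer that MTF1 represses in mouse cells given excess zinc, rose from 145, 137 and 132 CPM to 162, 170 and 165 CPM. The groups did not overlap, and the spread within each group was small. The log2 fold change was 0.27 ± 0.06 SE (138 ± 6.24 to 166 ± 3.85 CPM, edgeR adjusted p = 0.00447), between 0.18 and 0.31 over the 14 alternatives and past the threshold in each. It was 0.29 without MNP 1 and 0.31 without control 1. Slc39a10 and Slc30a1 thus rose by nearly the same factor, the first an importer and the second an exporter.

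Slc39a1 (ZIP1), a widely expressed plasma membrane importer, was the member whose MNP libraries all lay below the controls. It was at 125, 127 and 127 CPM in controls and 121, 120 and 112 CPM in MNP libraries. The log2 fold change of -0.10 (95% interval -0.22 to 0.02) did not pass (edgeR adjusted p = 0.233), except with library totals alone (-0.19, edgeR adjusted p = 0.0293). Slc39a7 (ZIP7), which releases zinc from the endoplasmic reticulum, was at 66.4, 53.3 and 56.8 CPM in controls and 62.3, 55.9 and 60.5 CPM in MNP libraries, within the range of the controls. Its log2 fold change was 0.02 (95% interval -0.17 to 0.20, edgeR adjusted p = 0.917), and its sign changed in 3 of 14 alternatives. A GENCODE read-through gene, Gm20427, shares most of its exons, and the deposited counts do not hold that symbol.

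Levels of different genes were compared as CPM per kb of annotated exon, with exon lengths taken from GENCODE M21, made for the earlier mouse build GRCm38. The length of Mt1 was 1246 bases of exon, or 1085 bases as the longest coding transcript, while its leading transcript has 549 bases. A shorter length raises a level per kb, and levels at 549 bases were not computed. The order of Mt1 and Slc39a1 therefore holds only for the lengths used. In controls, by annotated exon, Slc39a1 was highest, at 52.7 to 53.8 CPM per kb. Mt1 was next, at 28.8 to 44.1 CPM per kb, with no overlap. Slc39a7 (20.6 to 25.7), Slc39a10 (21.7 to 23.7) and Slc30a1 (19.3 to 21.8 CPM per kb) followed, and each of these ranges overlapped the next. Slc30a5 (10.95 to 11.7), Slc30a7 (5.95 to 6.18) and Mtf1 (4.20 to 4.34 CPM per kb) came below them without overlap. Mt2 (1.63 to 3.32) and Slc39a14 (1.21 to 1.30 CPM per kb) were lowest, again without overlap.

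In MNP libraries, by annotated exon, Mt1 was at 50.2 to 59.6 and Slc39a1 at 47.2 to 51.3 CPM per kb. Their ranges overlapped, and the mean of Mt1 was the higher (55.9 against 49.7). Because the order in controls depends on the length taken for Mt1, no change of first place is read from these values. Slc39a10 (26.6 to 27.9 CPM per kb) was above Slc39a7 (21.6 to 24.1) and Slc30a1 (22.7 to 25.5) without overlap. Mt1 was thus at 55.9 and Mt2 at 2.80 CPM per kb in the same libraries. When the longest coding transcript was used as the length, Slc39a1 and Mt1 still led in both groups, but in MNP libraries they no longer overlapped, with Mt1 at 57.7 to 68.5 and Slc39a1 at 47.2 to 51.3 CPM per kb. With that length Slc30a5 moved from the sixth place to the third in controls, and the means of Mt2 and Slc39a14 changed places, with overlapping ranges in controls.

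**Figure D2:**
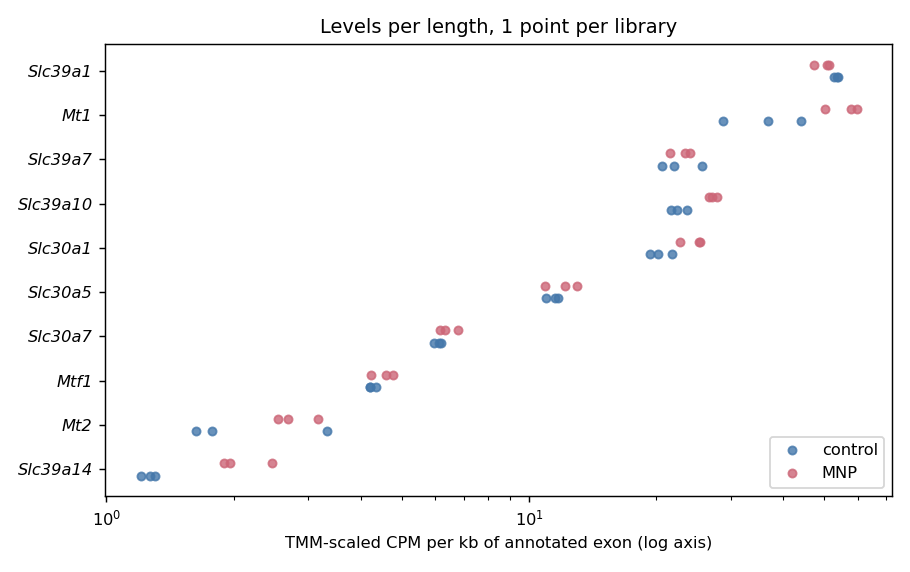
TMM-scaled CPM per kb of annotated exon (horizontal log axis) of the 10 genes, with 1 point per library, controls and MNP libraries in different colours. With this length Mt1 overlaps Slc39a1 in MNP libraries and lies below it in controls, and Mt2 and Slc39a14 are at the low end.

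The rest of both transporter families and the other metallothioneins, 19 genes, held 11 with enough counts to test, of which 2 rose and 0 fell. These 18.2% called are close to the 17.5% called among all tested genes. None was lower at an unadjusted p under 0.05 in edgeR, and DESeq2 and limma-voom called 0 lower. The median log2 fold change of the 11 was -0.04, against -0.01 over all tested genes. Slc39a4 (ZIP4), the importer that takes up dietary zinc in the intestine and that is mutated in the human zinc deficiency acrodermatitis enteropathica, was at 1.39, 1.35 and 1.19 CPM in controls and at 7.10, 10.3 and 7.98 CPM in MNP libraries. The lowest MNP library of Slc39a4 was far above the highest control, at 147 counts against 31. Its log2 fold change was 2.69 ± 0.22 SE (edgeR adjusted p = 1.37e-06), above 99.8% of tested genes, and lay between 2.53 and 2.81 over the 14 alternatives, the highest value being that without MNP 1. Per kb of exon it went from 0.421 ± 0.0344 to 2.73 ± 0.536 CPM (SD, n = 3 each), about the level of Mt2 in the MNP libraries. Slc39a6 (ZIP6), which forms a complex with ZIP10, rose 1.13-fold from 100, 104 and 105 CPM to 112, 116 and 121 CPM (log2 0.18 ± 0.06 SE, edgeR adjusted p = 0.0437). Its groups did not overlap, but 6 of 14 alternatives lost the call, with adjusted p up to 0.270 with library totals alone and 0.0501 to 0.144 without any 1 of control 1, control 2, control 3, MNP 2 or MNP 3.

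The other 9 tested family genes had log2 fold changes from -0.22 for Slc39a3, a plasma membrane importer, to 0.14 for Slc39a11. Slc39a8 (ZIP8), the lysosomal and plasma membrane importer that NF-kB induces in human monocytes, was at 13.9, 14.3 and 17.2 CPM in controls and 13.6, 14.8 and 13.9 CPM in MNP libraries (log2 -0.10, 95% interval -0.35 to 0.14, edgeR adjusted p = 0.589). The groups of Slc39a8 overlapped, and the interval includes no change. Slc30a4 (ZnT4) and Slc30a6 (ZnT6) had intervals from -0.22 to 0.13 and from -0.20 to 0.32.

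**Figure D3:**
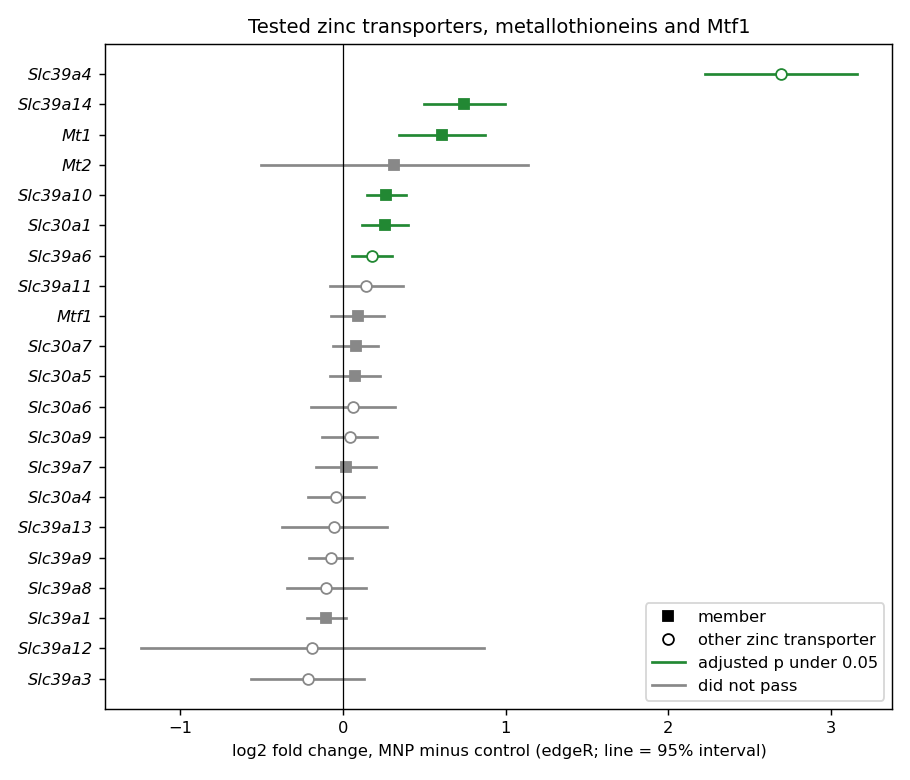
Log2 fold change, MNP minus control (horizontal axis), with its 95% interval for the 21 tested zinc transporters, metallothioneins and Mtf1. Squares are the 10 members and open circles the other family genes. Slc39a4 lies at 2.69, Slc39a14 and Mt1 at 0.75 and 0.61, and the remaining called genes between 0.18 and 0.27.

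**Figure D4:**
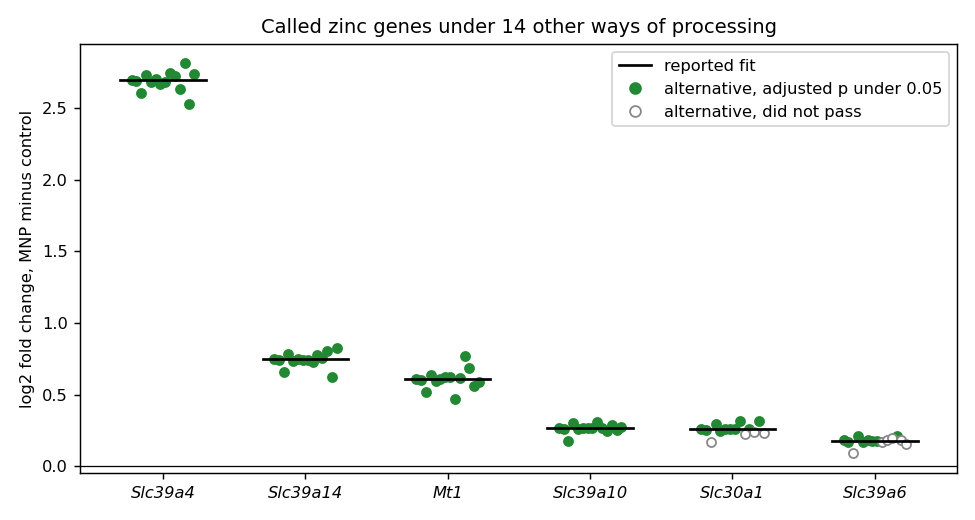
Log2 fold change, MNP minus control (vertical axis), of the 6 called zinc transport and metallothionein genes. The black line is the reported fit and each point 1 of 14 alternatives, filled where the adjusted p stayed under 0.05. Slc39a4, Slc39a14, Mt1 and Slc39a10 have filled points throughout, while Slc30a1 has 4 open points and Slc39a6 has 6.

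Of 5 further genes reported as MTF1 targets or MTF1-dependent in mouse cells, 2 rose and 1 fell, beside 9.11% of all tested genes higher and 8.35% lower, with a median log2 fold change of 0.13. A list of 5 genes gives only a description. Gclc, the catalytic subunit of glutamate-cysteine ligase, and Slc40a1, the iron exporter ferroportin, rose by 1.53 and 0.87 on the log2 scale. Slc40a1 was at 45.2, 28.5 and 33.9 CPM in controls and 60.9, 65.9 and 69.8 CPM in MNP libraries (edgeR adjusted p = 0.000369), so the groups did not overlap. Selenow, a small selenoprotein, fell from 9.52 ± 0.678 to 3.14 ± 0.258 CPM (log2 -1.60, edgeR adjusted p = 1.02e-05). Ndrg1 and Csrp1, a stress-responsive gene and a LIM-domain protein gene, did not pass (log2 0.13 and -0.08).

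Copper, the other metal that metallothioneins hold, has its own carriers, and of 12 tested copper handling genes 2 rose and 2 fell (33.3% called, beside 17.5% of all tested genes), with a median log2 fold change of -0.0036. Atox1, the cytosolic chaperone that hands copper to the ATPases, rose from 29.4, 34.0 and 35.2 CPM to 46.9, 42.3 and 47.3 CPM (log2 0.47 ± 0.09 SE, edgeR adjusted p = 0.00212). Slc31a2, a copper transporter of endosomes and lysosomes, fell from 43.5, 41.1 and 42.9 CPM to 27.8, 28.05 and 26.8 CPM (log2 -0.63 ± 0.07 SE, edgeR adjusted p = 5.48e-05). In both genes the groups were well apart.

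Cp, the copper-carrying ferroxidase ceruloplasmin, fell 4.30-fold from 18.2 ± 0.584 to 4.23 ± 0.757 CPM (edgeR adjusted p = 2.14e-07). Its exons overlap those of Hps3 on the opposite strand by 108 bases. Hps3 had 899 to 1095 counts, against 366 to 440 for Cp in controls and 78 to 104 in MNP libraries. Sco2, which delivers copper to cytochrome oxidase, rose from 6.22 ± 1.00 to 9.19 ± 1.23 CPM (log2 0.56 ± 0.16 SE, edgeR adjusted p = 0.0310). The Sco2 call was lost in 4 of 14 alternatives, with library totals alone (edgeR adjusted p = 0.0585) and without control 2 (edgeR adjusted p = 0.111), MNP 1 (edgeR adjusted p = 0.0778) or MNP 2 (edgeR adjusted p = 0.128), and exons of Sco2 overlap those of Tymp on the same strand and of Ncaph2 on the opposite strand, which had 1194 to 1480 counts against 119 to 224 for Sco2. The copper importer Slc31a1 and the copper ATPase Atp7a did not pass, with 95% intervals from -0.20 to 0.11 and from -0.10 to 0.16.

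Of 5 genes that handle or sense zinc outside these families, 4 could be tested (the zinc chaperone Zng1, the lysosomal channel Mcoln1, the channel kinase Trpm7 and the vesicular transporter Tmem163), and 0 were called in either direction by edgeR, DESeq2 or limma-voom, nor at an unadjusted p under 0.05 in edgeR. Tmem163 was at 8 to 36 counts, so its log2 fold change of 1.01 had a 95% interval from -0.14 to 2.17. Glucocorticoids also induce Mt1 and Mt2, and of 8 glucocorticoid-responsive genes 3 rose and 0 fell, beside 9.11% of all tested genes higher and 8.35% lower, with a median log2 fold change of 0.26. DESeq2 and limma-voom called 0 of the 8 lower, and edgeR had 1 lower at an unadjusted p under 0.05. The kinase Sgk1 rose from 76.8, 88.4 and 88.2 CPM to 128, 130 and 129 CPM (log2 0.61 ± 0.06 SE, edgeR adjusted p = 1.75e-05).

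The phosphatase gene Dusp1 and the receptor inhibitor gene Errfi1 rose by 0.37 and 0.47 on the log2 scale, with edgeR adjusted p of 0.0254 and 0.0322. The call of Dusp1 was lost in 4 of 14 alternatives, with library totals alone and without control 2, control 3 or MNP 3 (edgeR adjusted p of 0.0713, 0.0748, 0.0873 and 0.131). That of Errfi1 was lost in 5, with library totals alone and without control 1, control 2, MNP 2 or MNP 3 (edgeR adjusted p of 0.0660, 0.0760, 0.0695, 0.107 and 0.126). The classical glucocorticoid targets Fkbp5 (log2 0.45, edgeR adjusted p = 0.0653) and Tsc22d3 (log2 -0.29, edgeR adjusted p = 0.0832) did not pass. Genes of this list therefore had values on both sides of 0.

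Among 9541 other genes averaging 5 CPM or more, those whose profile over the 6 libraries was nearest to that of Mt1, by the root mean square difference of mean-centred log2 CPM, were Lsp1 (0.0701), COX1 (0.0875) and Tcf12 (0.0929). Lsp1, a leukocyte actin-binding protein gene, was at 48.3, 68.7 and 71.9 CPM in controls and 86.5, 102 and 92.3 CPM in MNP libraries, so like Mt1 it was lowest in control 1. COX1 is mitochondrially encoded, and it too was lowest in control 1, at 3982 CPM against 4717 and 5366 CPM in the other controls. The nearest to Slc30a1 were Brd2 (0.0165), H13 (0.0209) and Txn2 (0.0263), all lowest in control 2 among the controls and in MNP 2 among the MNP libraries, as Slc30a1 was. These distances describe likeness over 6 libraries.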

How the data were processed

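Whole-number counts per gene symbol, 1 deposited file per library, were used as the authors deposited them. The submitters' processing notes name the build GRCm39 and the tools fastp, STAR, Salmon and GATK without roles. The annotation, the strand setting, molecular identifiers and any rounding were not given in the sources used here. Groups and replicate numbers came from titles. Replicates differed by more than sampling noise (chi-square per degree of freedom 6.65 to 17.6), so each counted once. Control and MNP libraries of the same number deviated together at most weakly (correlations 0.0867, 0.0282 and -0.0218 across genes), so no block was used. Pairs of unlike number had correlations from -0.103 to 0.084. Taken from deviations around means of only 3 libraries, these correlations are a weak check of pairing. Genes passing edgeR's default filter entered edgeR 4.0.16 under R 4.3.3 (TMM factors, quasi-likelihood F test, Benjamini-Hochberg adjustment over all tested genes). The SE was obtained by dividing the size of the log2 fold change by the root of the F statistic, and 95% intervals use the test's degrees of freedom. The steps were tested on data simulated from the fit's own means and spread. That check does not cover departures of these libraries from the model. Alternatives were other scalings, filters, DESeq2 1.42.0, limma 3.58.1 (voom), a replicate block and leaving out each library. Members and lists were chosen with earlier results of these data known. All members and every called gene of the other lists are named, with further genes chosen after their values were seen. Exon lengths and overlaps came from GENCODE M21 (GRCm38) by symbol, and promoter windows from RefSeq.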

Additional observations from a re-analysis of the deposited data

How the results depend on the processing

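The direction and call of Mt1, Slc39a14, Slc39a10 and Slc39a4 were the same in all 14 alternatives, as were the non-calls of Mt2 (13 alternatives) and Mtf1. With library totals alone, 757 genes were called higher and 1941 lower (28.1% of calls higher against 52.2%), the median of all genes shifted by -0.09, 3 members were called higher and 1 lower (Slc39a1), and the members' median was 0.0864. In that setting Slc30a5 and Slc30a7 were at -0.0121 and -0.0115 and Slc39a7 at -0.0713, 1 other family gene was called higher (median -0.13), 1 copper gene higher (median -0.0933), 1 glucocorticoid-responsive gene higher and 1 lower (median 0.17), and the zinc handling genes outside the families had a median of -0.12. The members' median was 0.0815 with at least 50 counts in 3 libraries, a filter Mt2 does not pass, and the median of the other family genes was -0.0113 with that filter and -0.0107 with no filter. Without 1 library at a time, all genes called lower numbered 672 to 1004 and members called higher 3 or 4, with members' medians of 0.13 to 0.19. Over the same omissions other family genes called higher were 1 or 2 (medians -0.0723 to 0.0537), copper genes called higher 1 or 2, and glucocorticoid-responsive genes called higher 1 to 4 (medians 0.21 to 0.30). Slc39a7 ranged from -0.0453 without control 2 to 0.12 without control 1, and was at -0.00987 without MNP 1. The cause of these shifts was not tested. With the replicate block, 1432 genes were called higher and 1254 lower and the members' calls were the 4 higher and 0 lower of the reported fit, but the samples share only a number, and not every library deviated most like its own number. The use of the longest coding transcript as the length, chosen after seeing the data, moved 13 of 20 levels per length by more than their SD. Depth limits Mt2, Tmem163 and Slc39a12, all with 46 counts or fewer in every library.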

Other observations

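Several family genes were too weakly counted to test. Slc30a2 (ZnT2), an exporter known from secretory epithelia, had 5, 6 and 6 counts in controls and 0 in all 3 MNP libraries, and a count of 0 allows up to 3 counts, or 0.135 to 0.145 CPM, against 0.240 to 0.261 CPM in controls. Slc30a10, known as a manganese exporter, had 0 to 7 counts in both groups. Mt3, the metallothionein of brain, had 0 to 1 counts in controls and 2 to 4 in MNP libraries, while Mt4 and the neuronal vesicle transporter Slc30a3 had none in any library.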
